A study of Mus musculus with 11 samples.

Results

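Integrin and laminin chains were examined in cultured mouse mesenchymal stem cells, the plastic-adherent stromal cells from which bone, fat and cartilage cells can be grown. The genes were chosen by name: protein-coding genes whose symbols begin with Itga, are Itgb followed by a digit, or are Lama, Lamb or Lamc followed by a digit. The rule found 37 of the 28222 genes of the count table, with 18 integrin alpha chains, 8 integrin beta chains and 11 laminin chains. Polyadenylated RNA was sequenced from 11 libraries that fall into 4 groups: 4 young libraries of batch A, 2 young and 2 old libraries of batch B, and 3 old libraries of batch C (A young, B young, B old and C old below). The donors of young cells were mice aged 3 to 5 months and those of old cells 18 to 22 months, and all cells had been grown at 2% oxygen. No genotype, strain or treatment was given in the labels, and what the batches are was not stated either. Age could be compared within batch B, because batch A held young and batch C old libraries only. The labels do not say whether libraries of a group came from separate animals or cultures, so that the p-values measure the spread between these libraries, which may be technical.

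Integrins are receptors made of an alpha and a beta chain that join the extracellular matrix, or ligands on other cells, to the actin cytoskeleton. The beta chain recruits talin and kindlin at the membrane, and the pairing of the chains sets the ligand: collagens, laminins, proteins with an Arg-Gly-Asp (RGD) motif, or, for the leukocyte integrins, adhesion molecules of other cells and complement fragments. Laminins are trimers of an alpha, a beta and a gamma chain that polymerise into basement membranes. Mesenchymal stromal cells are known to attach to bone matrix through collagen and fibronectin receptors and to make laminins that surround vessels and adipocytes.

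Library totals lay between 11969336 and 20315934 counts, and 3 counts, used here as the floor of detection, corresponded to 0.156 to 0.253 CPM (counts scaled to a library total of 1e+06, with TMM factors). A list of 11 stromal markers summed to between 97500 and 108000 CPM in A young, 54600 and 85900 CPM in B young, 45900 and 50100 CPM in B old, and 42100 and 44300 CPM in C old. Its single markers ranged from Nt5e, at 8.42 to 30.5 CPM in the 11 libraries, over Pdgfra at 109 to 289 CPM and Thy1 at 207 to 389 CPM to the collagen gene Col1a1 at 18400 to 61700 CPM. A list of 20 leukocyte markers summed to between 875 and 1960 CPM in A young, 507 and 1040 CPM in B young, 1060 and 1490 CPM in B old, and 170 and 203 CPM in C old. The sums were 0.222 to 3.03 CPM for 8 epithelial markers, 4.82 to 13.4 CPM for 9 endothelial markers, 33.5 to 69.1 CPM for 8 megakaryocyte markers, 9.03 to 18.8 CPM for 6 glial markers, 26.2 to 64.7 CPM for 5 skeletal muscle markers and at most 0.524 CPM for 6 lymphocyte markers. In RNA from whole cultures, fewer cells of a type and less RNA per cell cannot be told apart.

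All 37 chains had more than 3 counts in at least 1 library, and 33 had them in every library. Itgb1, the common partner of the matrix-binding alpha chains, had the highest level per length, with a mean of 312 CPM per kb of transcript. Next came Itgb5, a partner of the alpha chain Itgav, with 115 CPM per kb, and the collagen receptor chain Itga11 with 85.2 CPM per kb. The laminin beta chains Lamb2 and Lamb1 followed with 72.4 and 60.0 CPM per kb. Itgav and Itga5, the alpha chains of vitronectin and fibronectin receptors, had 48.9 and 43.2 CPM per kb. The chains with at least 100 CPM in every library numbered 10, namely these 7 together with Lama4, Lamc1 and Itga1. At the other end, Itgae, Itgax and Itgb6 stayed under 1 CPM in every library, and Lama3 did not exceed 1.40 CPM. Itgae and Itgax are leukocyte alpha chains, and Itgb6 and Lama3 are chains best known from epithelia.

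**Figure D1:**
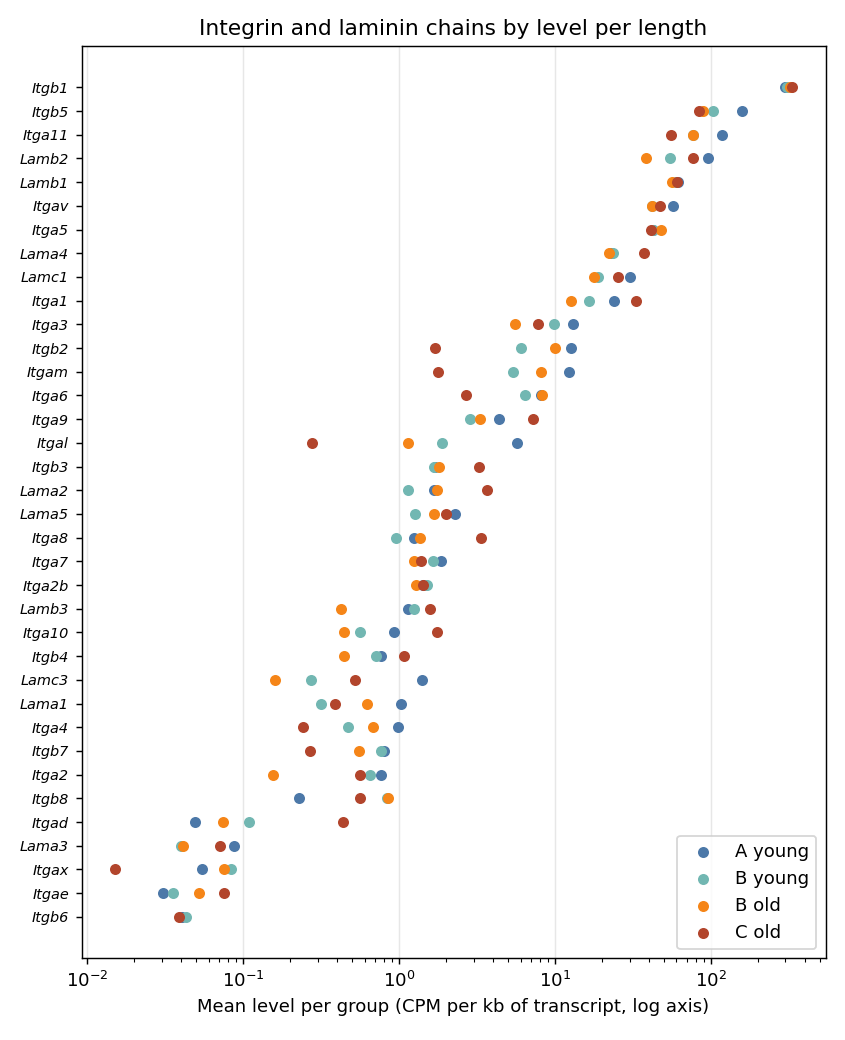
Mean level of 36 of the chains in each group, in CPM per kb of transcript on a log axis, with genes in order of their mean over the 11 libraries. Itgb1 leads at 312 CPM per kb, and C old lies to the left of the other groups for Itgal, Itgb2 and Itgam and to the right of them for Itgad.

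The age comparison asked which chains differed between old and young cells of batch B. The fit took in all 11 libraries and a term for batch, so that the age coefficient comes from batch B and the other libraries add to the estimate of the spread. Of 36 chains tested, 3 were lower in B old and 0 were higher by the quasi-likelihood test of edgeR at an adjusted p of 0.05. Among all 16132 genes tested, 2.23% were called, 0.694% as higher and 1.54% as lower. At an unadjusted p of 0.05 the counts of chains would have been 3 higher and 7 lower, with limma-trend they were 0 and 3, and with DESeq2 1 and 4. The chains that fell were the collagen-binding alpha chain Itga2, the laminin-binding alpha chain Itga3 and the laminin beta chain Lamb3. Lamb3 is a chain of the laminin that anchors epithelial sheets and is a ligand of integrins containing Itga3. The other 33 chains tested did not pass, and Itgae was not tested for want of counts. The median log2 fold change of the 36 chains was -0.09, beside 0.00445 over all genes. Stromal markers fell in the same comparison: 4 of 11 were lower and 0 higher by edgeR, namely Lum (-1.63, SE 0.30), Dcn (-1.59, SE 0.30), Nt5e (-1.34, SE 0.25) and Pdgfra (-0.86, SE 0.15), and 6 were lower with DESeq2. Their median log2 fold change was -0.54, and the part of this in the falls of Itga2, Itga3 and Lamb3 was not tested.

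Itga2 lies at chr13:114833081-114932100 on the minus strand (GRCm38). Its level was 4.59 and 4.70 CPM in B young and 1.01 and 1.20 CPM in B old. A young libraries had 3.99, 9.12, 3.47 and 5.20 CPM, and C old libraries 3.00, 5.43 and 3.56 CPM. Both B old libraries were thus below each of the other 9, and they rested on 15 and 18 counts. The log2 fold change of Itga2 from B young to B old was -2.06 (SE 0.45, edgeR adjusted p = 0.024).

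Itga3 lies at chr11:95044474-95076801, also on the minus strand. B young libraries had 50.9 and 45.2 CPM and B old libraries 29.3 and 24.2 CPM. The level was 78.1, 47.0, 65.9 and 63.6 CPM in A young and 38.7, 35.6 and 38.7 CPM in C old. Again the 2 B old libraries were the lowest of all, while young libraries lay above all old ones. Itga3 fell by 0.84 on the log2 scale (SE 0.18, adjusted p = 0.0197 by edgeR). With an offset for transcript length and GC content it was -0.69 and the call was lost (adjusted p = 0.0603).

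Lamb3 lies at chr1:193207699-193343878 on the plus strand. Its level fell from 7.04 and 5.04 CPM in B young to 2.09 and 2.00 CPM in B old. In A young it was 8.20, 6.0, 3.80 and 4.22 CPM and in C old 6.89, 8.18 and 7.98 CPM. The C old libraries, of the same age as B old, lay inside the range of the 6 young libraries. The log2 fold change within batch B was -1.57 (SE 0.33, edgeR adjusted p = 0.021). Hsd11b1 and G0s2 overlap the span of the Lamb3 gene on the opposite strand and had 0.507 to 2.12 CPM and 4.99 to 21.1 CPM. Overlap of their exons was not examined, and whether counting used strand was not given, so that reads may be shared or lost.

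**Figure D2:**
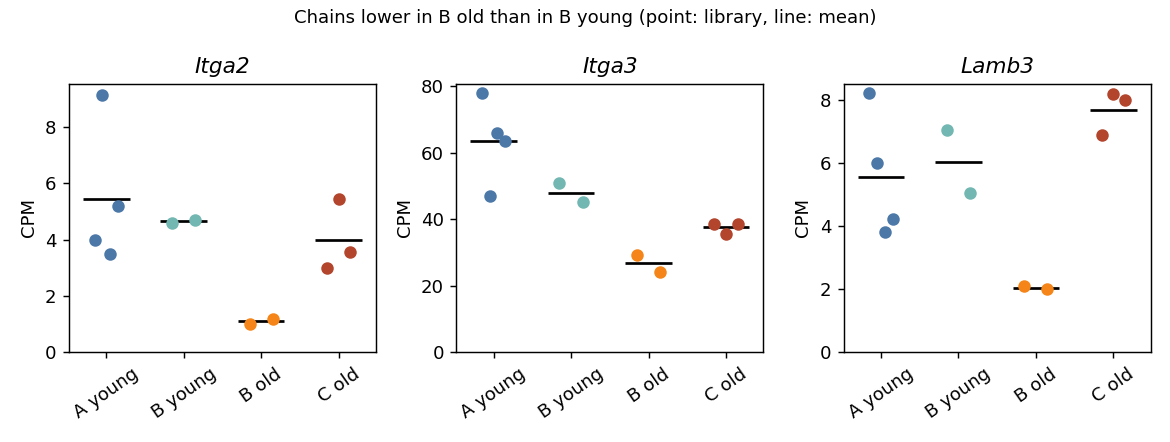
CPM of Itga2, Itga3 and Lamb3 in each library (points) with the group mean (line), for A young, B young, B old and C old. The 2 B old libraries are the lowest points in each panel, at 1.01 and 1.20 CPM for Itga2, 29.3 and 24.2 CPM for Itga3, and 2.09 and 2.00 CPM for Lamb3.

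The adjusted p-values depended on single libraries of batch B. Without B old replicate 1, B old replicate 2 or B young replicate 1, none of the 3 chains was called, although their log2 fold changes were -1.93 to -2.19 for Itga2, -0.72 to -0.98 for Itga3 and -1.30 to -1.58 for Lamb3. In the last of these fits 3 others, Itgb2, Itgam and Lama1, were called as higher. Without B young replicate 2, 6 chains were called, the 3 above and Itgal, Itga1 and Lamb2. Without the batch term, in which C old counts as old and A young as young, Itga3 was -0.79 (edgeR adjusted p = 0.0144), whereas Itga2 was -0.84 (adjusted p = 0.166) and Lamb3 -0.06 (adjusted p = 0.933). Beside these, Lama1, an alpha chain of early embryonic basement membranes, was 0.94 (SE 0.27, adjusted p = 0.0879) and Lamb2 was -0.52 (SE 0.14, adjusted p = 0.0716) in the main comparison. Both were past the threshold with DESeq2, at 0.96 (adjusted p = 0.0352) and -0.51 (adjusted p = 0.0114). With the offset for length and GC content, Lama1 was 1.13 (edgeR adjusted p = 0.00979), Lama5 0.62 (adjusted p = 0.0359) and Lamb2 -0.33 (adjusted p = 0.0684). Old and young libraries of batch B did not overlap for 18 of the 36 chains, 6 with both old libraries higher and 12 with both lower, beside 39.7% of all genes tested.

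Promoters are shown for the 3 chains that fell together in B old. The windows run from 250 bases before to 50 after the start in the RefSeq table for GRCm38.p6, which held 26 promoters for 23 of the 37 chains, and are written 5′ to 3′ on the strand of the gene. Capitals mark GGGCGG on either strand, the letters bound by Sp1. Itga2 is at chr13:114932051-114932350 (minus strand), Itga3 at chr11:95076665-95076964 (minus strand) and Lamb3 at chr1:193301744-193302043 (plus strand).
Itga2: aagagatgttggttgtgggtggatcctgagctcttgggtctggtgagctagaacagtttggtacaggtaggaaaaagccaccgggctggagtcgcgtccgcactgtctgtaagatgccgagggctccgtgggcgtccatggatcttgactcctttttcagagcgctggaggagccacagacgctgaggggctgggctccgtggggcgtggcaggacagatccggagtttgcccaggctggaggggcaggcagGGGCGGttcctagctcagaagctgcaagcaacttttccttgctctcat
Itga3: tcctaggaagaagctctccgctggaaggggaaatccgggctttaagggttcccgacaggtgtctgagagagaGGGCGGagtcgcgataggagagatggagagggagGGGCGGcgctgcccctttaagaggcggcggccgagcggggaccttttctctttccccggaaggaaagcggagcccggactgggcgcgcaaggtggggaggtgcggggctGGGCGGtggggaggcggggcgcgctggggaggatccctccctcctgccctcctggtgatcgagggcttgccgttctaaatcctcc
Lamb3: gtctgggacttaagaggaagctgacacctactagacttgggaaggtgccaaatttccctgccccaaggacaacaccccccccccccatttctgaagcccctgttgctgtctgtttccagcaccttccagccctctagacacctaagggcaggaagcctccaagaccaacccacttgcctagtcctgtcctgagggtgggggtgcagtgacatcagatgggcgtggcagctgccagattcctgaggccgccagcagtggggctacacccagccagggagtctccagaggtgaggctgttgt
The Itga2 window held 1 match, the printed Itga3 window 3 and the printed Lamb3 window 0. Itga3 and Lamb3 each had a further promoter among the 26, not printed here, with 1 and 0 matches. The same letters were in 12 of the 26 promoters of the chains and in 35.7% of all 32851 promoters. TATAAA was in 0 of the 26 and in 13.6% of all. A match describes the letters and not a binding site.

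The comparison of B young with A young held age constant and shares the B young libraries with the age comparison. Of 35 chains tested, 1 was higher and 10 were lower in B young, where 18.1% of all 14840 genes were called (9.39% higher and 8.71% lower). The median log2 fold change of the 35 was -0.39, beside 0.00935 over all genes. Groups did not overlap for 14 of them, 2 higher and 12 lower, beside 40.9% of all genes. With library scaling by total counts instead of TMM, the share of higher calls among all genes called moved from 51.9% to 66.4%, and 10 chains were called, 1 of them as higher. Of the 11 stromal markers 3 were higher and 2 lower in B young.

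The single chain that rose was Itgb8, a partner of Itgav in receptors that release active TGF-beta from its latent form. It had 2.27, 2.20, 1.82 and 1.30 CPM in A young and 7.04 and 6.94 CPM in B young, so that the groups were well apart. B old had 6.06 and 8.08 CPM, close to B young, and C old had 4.12, 4.52 and 5.37 CPM. The log2 fold change from A young to B young was 1.89 (SE 0.25, edgeR adjusted p = 0.00145).

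The largest falls were in laminin chains. Lamc3, a gamma chain with a restricted pattern of expression, had 13.2, 6.93, 7.76 and 5.04 CPM in A young and 1.15 and 2.04 CPM in B young. B old had 0.741 and 1.14 CPM and C old 2.41, 4.12 and 2.61 CPM, and no library of the other groups reached the lowest A young library. The log2 fold change of Lamc3 was -2.38 (SE 0.40, edgeR adjusted p = 0.00308). Lama1 had 8.81, 11.9, 9.66 and 8.61 CPM in A young and 3.91 and 2.11 CPM in B young, with 6.20 and 5.61 CPM in B old and 3.36, 3.34 and 4.43 CPM in C old. Its log2 fold change was -1.65 (SE 0.26, adjusted p = 0.0024), and A young was again above the rest.

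The other laminin chains that fell in B young were Lama5 (-0.82, SE 0.18), Lamb2 (-0.78, SE 0.15) and Lamc1 (-0.65, SE 0.18), with edgeR adjusted p between 0.00542 and 0.0243. Lama5 is a broadly expressed alpha chain, and Lamc1 is the gamma chain of most laminin trimers. Among integrins, the collagen receptor chains Itga1 (-0.51, SE 0.15) and Itga11 (-0.59, SE 0.19) and the vitronectin receptor chain Itgb5 (-0.58, SE 0.14) fell. The leukocyte chains Itgal (-1.56, SE 0.35) and Itgb2 (-1.02, SE 0.28) fell as well. All of these had both B young libraries below the 4 of A young, as did 20.8% of all genes tested. They are listed because they were called as lower, so that this adds no separate evidence. With the offset for length and GC content the calls of Lama5, Lamc1 and Itga11 were lost, at -0.16, -0.29 and -0.28, and Lamb2 and Itgb5 were called at -0.33 each. B young replicate 2 carried much of this list: without it 4 chains were called, namely Itgb8, Lamc3, Lama1 and Lamb2, and without A young replicate 3 there were 6. Without B young replicate 1 there were 16. Single calls were lost without other A young libraries too: Itga11 without replicate 1, Itga1, Itga11 and Lamc1 without replicate 2, and Itga1 without replicate 4. DESeq2 did not call Itgb2.

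C old and B old were of the same age and differed in batch, and the B old libraries are also those of the age comparison. Of 34 chains tested, 15 were higher and 10 lower in C old by the edgeR test, a share of 73.5% beside 64.7% of all 15651 genes (32.1% higher and 32.6% lower). The median log2 fold change was 0.22, beside 0.0227 over all genes. Groups did not overlap for 28 chains, 18 higher and 10 lower, beside 76.3% of all genes. Total-count scaling shifted all genes by a median log2 value of 0.193 and moved the share of higher calls from 49.6% to 62.9%, and 26 chains were then called, 19 of them as higher, with Itgb1, Itgav, Lama5 and Lamb1 gained and Itgb7 and Itgb8 among those lost. Of the 11 stromal markers 5 were higher and 2 lower in C old.

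By role, the 4 collagen-binding alpha chains all passed, where 64.7% of all genes were called, and they did not share a direction. Itga10 (1.96, SE 0.30), Itga2 (1.84, SE 0.33) and Itga1 (1.37, SE 0.08) were higher in C old and Itga11 (-0.47, SE 0.08) was lower. Itga10 is the cartilage collagen receptor chain, and the predicted gene Gm42957, at 1.28 to 6.22 CPM, overlaps it on the same strand. Of the laminin-binding alpha chains, Itga3 was higher (0.49, SE 0.10), Itga6 was lower (-1.62, SE 0.16) and Itga7 did not pass. Itga6 had 41.8 and 29.2 CPM in B old and 9.71, 12.4 and 12.6 CPM in C old. Among the RGD-binding chains Itga8 was higher (1.28, SE 0.17), and Itga5, Itgav and Itga2b, the platelet fibrinogen receptor chain, did not pass.

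Itga9, a receptor chain for tenascin and other ligands, was higher (1.13, SE 0.08), whereas Itga4, its relative found on blood cells, was lower (-1.49, SE 0.23). Of the beta chains outside the leukocyte class, Itgb3 (0.87, SE 0.11) and the hemidesmosome chain Itgb4 (1.28, SE 0.26) were higher, Itgb8 was lower (-0.61, SE 0.19), and Itgb5 and Itgb1 did not pass. Itgb1 had 1230 and 1220 CPM in B old and 1250, 1250 and 1270 CPM in C old, and its log2 fold change was 0.03 (SE 0.07). Itgb1 was not called in any of the 3 comparisons, with log2 fold changes of 0.06 (SE 0.12) with age and 0.07 (SE 0.13) between the young groups. The call of Itgb8 was also lost without B old replicate 2 or without C old replicate 1.

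Of the laminin chains, Lamb3 (1.90, SE 0.20), Lamc3 (1.69, SE 0.36), Lama2 (1.07, SE 0.14), Lamb2 (0.99, SE 0.08), Lama4 (0.73, SE 0.08) and Lamc1 (0.52, SE 0.07) were higher in C old. Lama2 is the alpha chain of muscle and nerve basement membranes, and Lama4 that of vessels and fat. Lama1 (-0.68, SE 0.20) was lower, and Lama3, Lama5 and Lamb1 did not pass. With the offset for length and GC content, Lamc1 turned to -0.06, the calls of Itga3 and Itgb4 were lost at 0.01 and 0.58, and Itgav (-0.16), Lama5 (-0.76) and Lamb1 (-0.28), which had positive values before, were called as lower, as were Itga5 and Itgb5. Other calls were kept at values that the offset moved by over 1.5 times, to 0.80 for Itga1, 0.64 for Itga9, 0.48 for Itgb3, 0.46 for Lama2, 0.37 for Lama4, 0.39 for Lamb2 and 1.08 for Lamc3 among those higher, and to -0.87 for Itga11, -1.01 for Itgb8 and -1.41 for Lama1 among those lower.

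**Figure D3:**
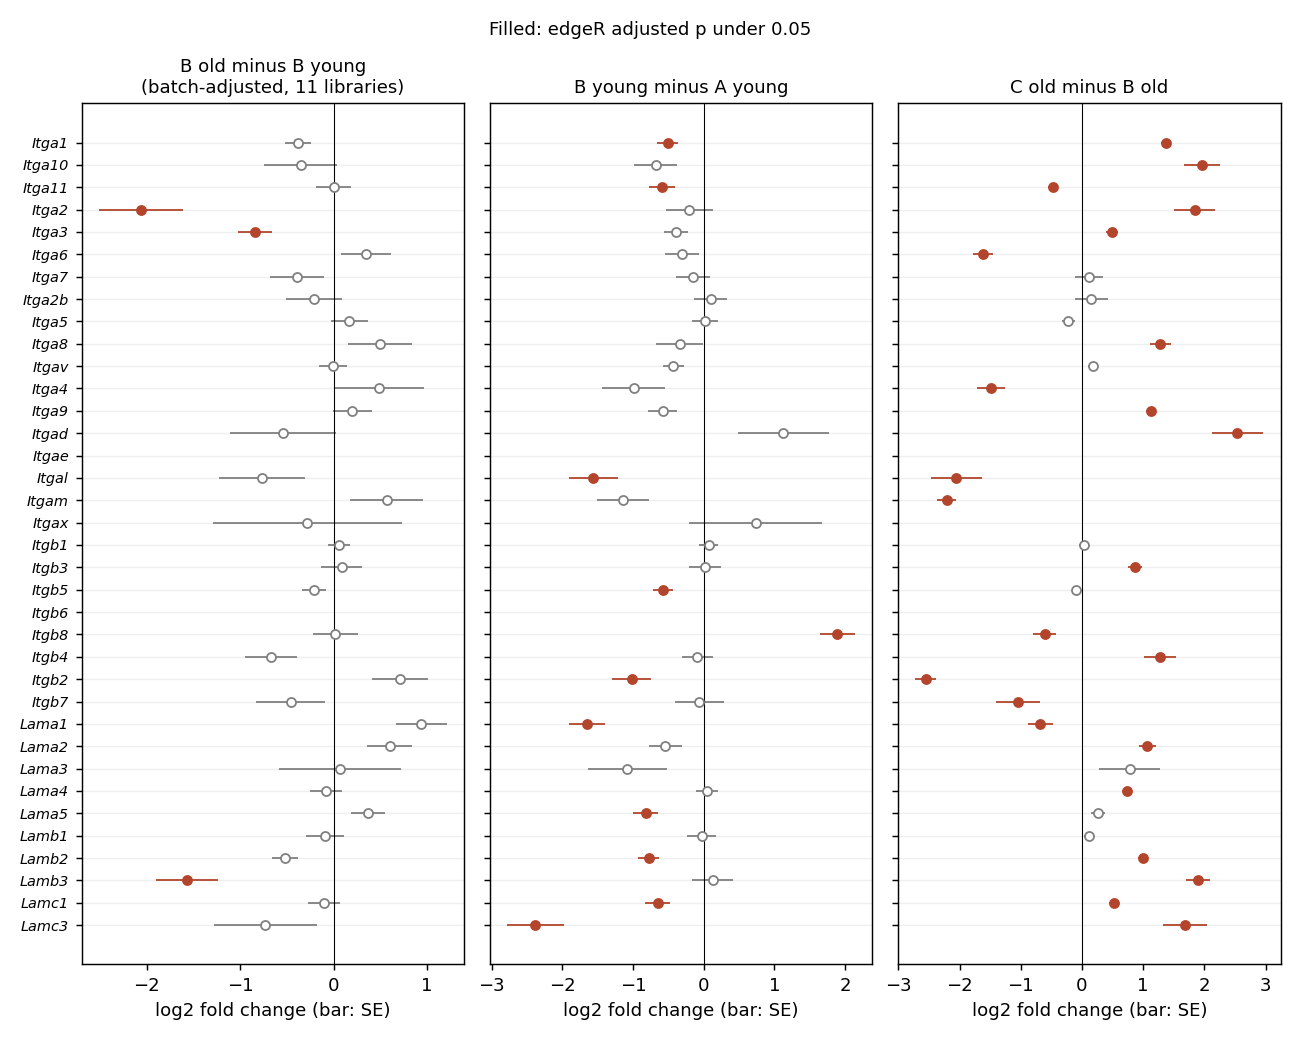
Log2 fold changes with SE of the chains in the age comparison (left), B young minus A young (middle) and C old minus B old (right), filled where the edgeR adjusted p was under 0.05; chains with a mean under the floor in both groups and 1 further chain are left out. Filled points number 3, 11 and 24 from left to right.

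Leukocyte integrins are the chains Itgal, Itgam, Itgax and Itgad, which pair with Itgb2, and Itgae and Itgb7, which pair with each other. They are best known from cells of the blood lineage, and which cells of these cultures expressed them was not tested. Their 7 chains summed to between 85.9 and 168 CPM in A young, 81.2 and 30.7 CPM in B young, 91.8 and 59.8 CPM in B old, and 17.3 and 18.1 CPM in C old. As a share of all integrin counts this was 2.50 to 5.09% in A young, 2.70 and 1.22% in B young, 3.31 and 2.19% in B old, and 0.589 to 0.626% in C old. The 95% Wilson intervals of the C old libraries, which cover counting error only, ran from 0.519 to 0.702% and stayed below those of every other library, of which the lowest began at 1.12%. The 5 leukocyte chains tested in C old against B old all passed, 4 as lower and 1 as higher, where 64.7% of all genes were called. In the age comparison 0 of 6 passed by edgeR, limma-trend or DESeq2, beside 2.23% of all genes by edgeR, and 1 was higher and 0 were lower at an unadjusted p of 0.05. Between the young groups 2 of 6 passed by edgeR, both as lower, beside 18.1% of all genes.

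Itgb2 had 25.8, 35.6, 47.8 and 40.7 CPM in A young, 24.8 and 11.2 CPM in B young, 35.4 and 24.0 CPM in B old, and 5.42, 5.57 and 4.21 CPM in C old. Its log2 fold change from B old to C old was -2.55 (SE 0.17, edgeR adjusted p = 1.54e-07), the largest of any chain. Itgam, the alpha chain of the complement receptor of macrophages and neutrophils, had 35.2, 53.4, 80.8 and 58.3 CPM in A young and 38.7 and 11.8 CPM in B young. It had 45.1 and 30.7 CPM in B old and 7.83, 8.32 and 8.63 CPM in C old, with a log2 fold change of -2.21 (SE 0.15, adjusted p = 1.59e-07). For both genes the C old libraries lay below all others, and B young replicate 2 lay below the other 7 libraries of batches A and B.

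Itgal, the alpha chain of the lymphocyte function antigen, had 21.7, 25.9, 36.2 and 34.9 CPM in A young, 14.9 and 4.63 CPM in B young, 8.83 and 2.94 CPM in B old, and 1.24, 1.31 and 1.74 CPM in C old. The log2 fold change was -2.05 (SE 0.41) from B old to C old, and with age it was -0.76 (SE 0.46, adjusted p = 0.438). Itgb7 had 2.55, 1.18, 2.56 and 2.27 CPM in A young, 1.72 and 2.38 CPM in B young, 1.62 and 1.34 CPM in B old, and 0.648, 0.851 and 0.653 CPM in C old. Its level was lower in C old than in B old (-1.04, SE 0.36, adjusted p = 0.0228), a call lost with DESeq2, with total-count scaling and without B old replicate 1, C old replicate 1 or C old replicate 3. Itgad went the other way, with 0.222, 0.169, 0.330 and 0.0812 CPM in A young, 0.417 and 0.477 CPM in B young, 0.337 and 0.267 CPM in B old, and 2.00, 1.70 and 1.67 CPM in C old (2.54, SE 0.42, adjusted p = 0.000213). It rested on 5 and 4 counts in B old and on 34, 26 and 23 in C old. Cox6a2 overlaps Itgad on the opposite strand and had 3.21 and 4.78 CPM in B old and 1.30 to 2.03 CPM in C old. Itgax had 0.222, 0.0845, 0.0826 and 0.487 CPM in A young, 0.677 and 0 CPM in B young, 0.472 and 0.134 CPM in B old, and 0.118, 0.0655 and 0 CPM in C old. Itgae had 0.222, 0.0845, 0 and 0.162 CPM in A young, 0 and 0.272 CPM in B young, 0.0674 and 0.334 CPM in B old, and 0.236, 0.262 and 0.363 CPM in C old. Itgax did not pass in the 2 comparisons in which it was tested, and Itgae was tested in none for want of counts.

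The leukocyte markers fell with Itgb2, Itgam, Itgal and Itgb7 in C old, while Itgad rose. All 20 markers were lower in C old than in B old, with a median log2 fold change of -2.84. In B young against A young 8 of 20 were lower by edgeR or limma-trend and 3 by DESeq2, with a median of -0.85. In the age comparison 0 of 20 passed by edgeR or limma-trend and 2 by DESeq2, as higher. All 20 log2 fold changes were above 0 there, with a median of 0.74, and 10 were higher at an unadjusted p of 0.05. The median of the 6 leukocyte chains tested was -0.37 with age, and 2 of them were above 0, Itgb2 at 0.71 and Itgam at 0.57. Of those below 0, Itgad (-0.54, SE 0.57) rested on 4 to 8 counts in batch B and Itgax (-0.28, SE 1.01) on 0 to 13. The others below 0 were Itgal (-0.76, SE 0.46) and Itgb7 (-0.46, SE 0.37). Per 100 CPM of leukocyte markers, Itgb2 stayed between 2.20 and 3.06 CPM and Itgam between 2.32 and 5.09 CPM in the 11 libraries. Itgal ranged more widely, from 1.84 to 2.48 CPM in A young and 0.913 and 1.44 CPM in B young to 0.593 and 0.278 CPM in B old and 0.646 to 1.03 CPM in C old. These ratios were chosen after the values had been seen and were not tested. The part of leukocyte RNA in the differences of Itga4 and Itga6, chains that blood cells also express, was not tested.

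**Figure D4:**
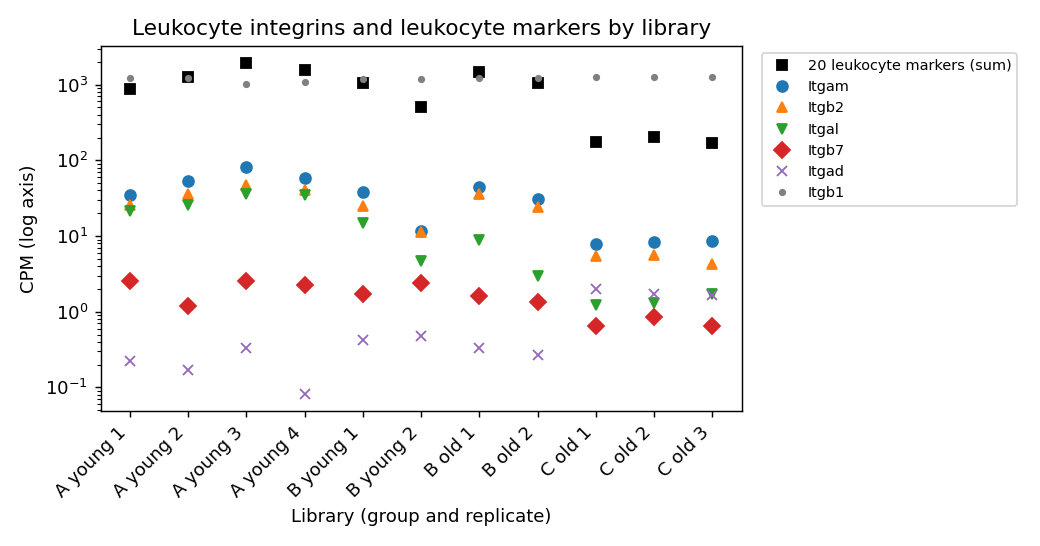
CPM of the leukocyte integrins Itgam, Itgb2, Itgal, Itgb7 and Itgad, of Itgb1 and of the sum of 20 leukocyte markers in each library, on a log axis. Itgam, Itgb2 and Itgal drop with the marker sum in the 3 C old libraries, Itgad does not, and Itgb1 stays between 1030 and 1270 CPM.

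As an example of a leukocyte chain, the promoter of Itgam, at chr7:128062390-128062689 on the plus strand of GRCm38.p6, is given with GAGGAA on either strand in capitals, the letters of the box bound by the myeloid factor encoded by Spi1.
Itgam: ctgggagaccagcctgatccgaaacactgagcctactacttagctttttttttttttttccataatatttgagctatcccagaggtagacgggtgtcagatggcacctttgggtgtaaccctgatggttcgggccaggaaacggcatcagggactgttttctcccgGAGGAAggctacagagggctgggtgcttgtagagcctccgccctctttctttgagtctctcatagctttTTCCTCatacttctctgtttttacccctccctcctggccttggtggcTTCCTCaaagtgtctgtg
The window held 3 matches. GAGGAA was in 14 of the 26 promoters of the chains, stromal ones included, and in 28.3% of all promoters, and no match overlapped a match of GGGCGG in the printed windows. The windows of the leukocyte chains Itgax and Itgb7 held 0 and 1 match of GAGGAA. Spi1 was lower in C old, as were all 20 leukocyte markers, and a part of Spi1 in the level of Itgam was not tested.

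Laminin chains differed in balance as well as in level. The laminin sum was 1220 to 1490 CPM in A young, 1190 and 767 CPM in B young, 803 and 907 CPM in B old, and 1230 to 1330 CPM in C old. Among alpha chains, Lama4 made up 80.4 to 89.6% of the level per kb in every library, with 115 to 228 CPM. Lamb1 had 248 to 442 CPM and was not called in any comparison. Lamb2 had 509, 567, 564 and 508 CPM in A young, 357 and 260 CPM in B young, 198 and 233 CPM in B old, and 422, 423 and 441 CPM in C old, and B old lay below all others.

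The ratio of Lamb2 to Lamb1 per kb was accordingly 1.38 to 1.88 in A young, 0.953 ± 0.175 (SD, n = 2) in B young, 0.676 and 0.692 in B old, and 1.22 to 1.30 in C old. All A young and C old libraries and B young replicate 2 had more Lamb2 than Lamb1, and both B old libraries and B young replicate 1 less. The beta chains together stood at 4.82 to 6.23 times Lamc1 per kb in the 11 libraries. The alpha chains together stood at 0.839 to 0.987 times Lamc1 in A young, 1.32 and 1.48 in B young, 1.31 and 1.67 in B old, and 1.62 to 1.77 in C old, so that A young did not overlap the others. These ratios, too, were chosen after the values had been seen, and with 2 libraries in a group no permutation test was run. They were taken without the offset for length and GC content. In B young against A young that offset moved Lamb2 from -0.78 to -0.33, Lamb1 from -0.03 to 0.22, Lamc1 from -0.65 to -0.29 and Lama4 from 0.05 to 0.24. In C old against B old it moved Lamb2 from 0.99 to 0.39, Lamb1 from 0.12 to -0.28, Lamc1 from 0.52 to -0.06 and Lama4 from 0.73 to 0.37.

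**Figure D5:**
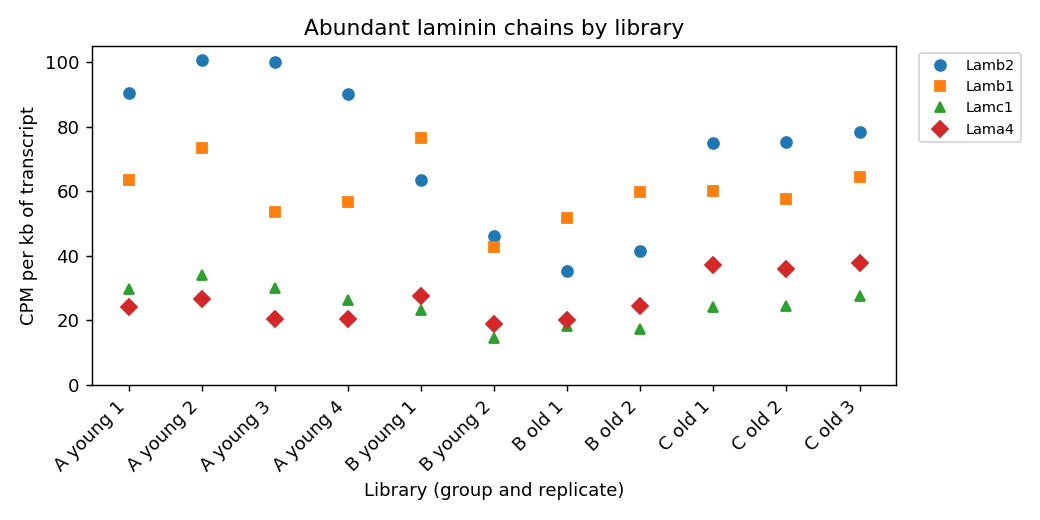
Level of Lamb2, Lamb1, Lamc1 and Lama4 in each library, in CPM per kb of transcript. Lamb2 lies above Lamb1 in all A young and C old libraries and in B young replicate 2, and below it in both B old libraries and in B young replicate 1.

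Partners of these chains were read from 3 lists. Of 21 integrin adaptors tested, 1 was lower and 0 higher with age by edgeR, beside 2.23% of all genes (1 higher and 5 lower at an unadjusted p of 0.05, 0 and 1 with DESeq2). In B young against A young 3 were higher and 6 lower, a share of 42.9% beside 18.1% of all genes, and in C old against B old 10 were higher and 7 lower, 81.0% beside 64.7%. The adaptor that fell with age was Tns2, a tensin that binds beta chain tails, from 97.1 and 67.0 CPM to 49.6 and 52.4 CPM (-0.69, SE 0.14, adjusted p = 0.0141). Talin Tln1, which activates integrins, was lower in B young (-0.56, SE 0.17) and higher in C old (0.72, SE 0.07). The kindlin of blood cells, Fermt3, ranged from 1.57 to 27.7 CPM and was lower in C old (-2.76, SE 0.25), whereas Fermt2, the widespread kindlin, was 0.01 (SE 0.07). Ilk, the kinase-like adaptor of focal adhesions, had only 0 to 0.609 CPM. Rrp8 and Taf10 overlap Ilk on the opposite strand, and this low value was not tested further.

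Of 20 basement membrane partners tested, 1 was lower and 0 higher with age by edgeR, 5.00% beside 2.23% of all genes (3 higher and 4 lower at an unadjusted p of 0.05, 0 and 2 with DESeq2). In C old against B old 12 were higher and 3 lower, 75.0% beside 64.7% of all genes. In B young against A young 2 were higher and 9 lower of 19 tested, 57.9% beside 18.1%. The perlecan gene Hspg2 had 2850, 2710, 3410 and 2470 CPM in A young and 1220 and 705 CPM in B young (-1.55, SE 0.22), and it was higher in C old than in B old (1.30, SE 0.10). Nid2, a nidogen that links laminin to collagen networks, was lower in B young (-0.70, SE 0.16) and higher in C old (0.98, SE 0.10), and Dag1, the laminin receptor dystroglycan, was -0.79 (SE 0.14) and 0.60 (SE 0.07) in the same comparisons. Ntn4, a laminin-related protein, was the partner that fell with age (-0.88, SE 0.19, edgeR adjusted p = 0.0224).

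Among integrin ligands, 0 of 17 passed with age in either direction by edgeR or limma-trend, while 1 was higher and 3 lower with DESeq2, and 4 were higher and 7 lower at an unadjusted p of 0.05. In the batch comparisons 1 was higher and 6 lower of 16 in B young, 43.8% beside 18.1% of all genes, and 5 were higher and 4 lower of 17 in C old, 52.9% beside 64.7%. Fibronectin Fn1, the ligand of receptors with Itga5, was lower in B young (-0.88, SE 0.21) and did not pass in C old (0.21, SE 0.09). Npnt, nephronectin, a ligand of receptors with Itga8, had 111 and 105 CPM in B old and 283, 317 and 286 CPM in C old (1.45, SE 0.08). Itga8 had 9.77 and 6.08 CPM in B old and 20, 17.7 and 20.3 CPM in C old. Both thus had separate groups in this comparison, as did 76.3% of all genes tested.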

How the data were processed

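Polyadenylated RNA of cultured mouse mesenchymal stem cells was sequenced in 11 libraries. The authors deposited raw counts, as whole numbers for each gene in each library, and had not normalised them. The build was mm10 or GRCm38 per the submitters' processing notes. Aligner, counter, strand use and the meaning of batch are not given in the sources used here, so that reads of overlapping genes may be shared or lost. Groups and replicate numbers came from the sample labels.

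Identifiers were matched to GENCODE M21 (28179 of 28222 genes, 28143 with a length, that of the longest transcript), with 1-based coordinates. Tests were quasi-likelihood tests in edgeR 4.0.16 (R 4.3.3), with TMM scaling, filterByExpr at a minimum count of 5, and two-sided p-values adjusted by Benjamini-Hochberg over all genes tested, at a threshold of 0.05. SEs were the log2 fold change divided by the root of F. Age was fitted with batch as a term over 11 libraries, and batches within 6 young and 5 old libraries. The number of libraries limits the precision. On simulated data 94.5% of 200 genes changed 2-fold were recovered in the age comparison (16044 genes tested). The share was 96.5% in each batch comparison (14704 and 15533 genes tested). The levels and spread of those data are not described here, and recovery at the levels of the chains was not tested. In the measured libraries Lama1, at 0.94 (SE 0.27) with age, did not pass (edgeR adjusted p = 0.0879).

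Values in every library are given for chains called with age, for the 3 called chains of largest change in each batch comparison and for leukocyte integrins. Further chains given by library (Itga6, Itga8, Itgb1 and Lamb2) and the partner genes named from the 3 lists were chosen after their values were seen. The values of 1 chain are not reported here. The members and gene lists were chosen with earlier results of these data known. Alternatives were limma-trend (limma 3.58.1), DESeq2 1.42.0, RLE factors, total-count scaling, a minimum count of 10, no filter, thinning, a length and GC offset (loess span 0.3), a replicate block, no batch term, batch B alone, and leaving out each library. Replicates of a group differed by more than sampling noise (chi-square per gene 3.24 to 52.3), and none was merged.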

Additional observations from a re-analysis of the deposited data

How the results depend on the processing

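The number of chains called with age was 3 and rose to 5 with DESeq2, 9 without a low-count filter and 9 without the batch term. The counts of all genes were then 640, 1094 and 2641, beside 360, and 123 with batch B alone, where 3 chains were called. Without the batch term Itgad turned to 2.04. Leaving out each library in turn gave 84 to 2007 genes and 0 to 6 chains with age, 511 to 4031 genes and 4 to 16 chains in B young against A young, and 9047 to 9624 genes and 23 to 27 chains in C old against B old. In that last comparison the length and GC offset turned Itgav to -0.16, Lama5 to -0.76, Lamb1 to -0.28 and Lamc1 to -0.06. The causes of these changes were not tested. With total-count scaling the share of higher calls among all genes called with age was 44.8% in place of 31.1%.

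The deviations of same-numbered libraries from their group means correlated between -0.111 and 0.135. With so few libraries in a group this cannot tell whether same-numbered libraries shared an animal or a culture. With the replicate number as a block, 294 genes and 3 chains were called with age, 729 genes and 9 chains in B young against A young, and 9154 genes and 24 chains in C old against B old. Where a group kept 1 library, it was assumed to vary like the other groups. At these depths a chain under 0.156 to 0.253 CPM could not be told from 0. This applies to Itgae, Itgax and Itgb6 in several libraries and to Itgad in A young replicates 2 and 4.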

Other observations

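The collagen receptor chains Itga11 and Itga1 stood in a different proportion in C old. Per kb of transcript Itga11 was 3.99 to 6.09 times Itga1 in the 8 libraries of batches A and B and 1.59 to 1.77 times in the 3 of batch C. Of the laminin receptor chains, Itga3 was 0.621 and 0.737 times Itga6 per kb in B old, and 1.24 to 3.54 times in the other 9 libraries. Itgb1 made up 59.9 to 67.4% of the level per kb of the 8 beta chains in A young, 70.9 and 75.5% in B young, 75.7 and 75.9% in B old, and 77.5 to 79.3% in C old. Itgal stood at 0.415 to 0.488 times Itgb2 per kb in A young and at 0.0695 to 0.342 times in the other 7 libraries. These proportions were chosen after their values had been seen, and no test was run on them. They were taken without the offset for length and GC content.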
